A study of Mus musculus with 19 samples.

Results

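Nuclear receptors are transcription factors that bind DNA through a zinc-finger domain and, in most cases, change their activity when a small fat-soluble ligand such as a fatty acid, a retinoid, a thyroid hormone, a bile acid or a steroid binds them. Many work as heterodimers with a retinoid X receptor, and they act through coregulators: coactivators such as PGC-1 alpha recruit the transcription machinery, and corepressors such as NCOR1 recruit histone deacetylases. In the kidney this family is known for setting the fatty acid oxidation, mitochondrial content and transport functions of the tubule epithelium. The genes described here are 41 members of that family in the mouse: every row of the gene count matrix whose symbol names a receptor of the NR1 to NR6 and NR0 groups, an NCOA, NCOR or PGC-1 coregulator, or Nrip1, with at least 100 counts summed over the 19 libraries. Nr1d1, Nr1d2, Nr3c1 and Nr3c2 were left out by the rule. Of 48 matching symbols, 7 fell short of 100 counts (Rxrg, Nr1h5, Esr2, Nr2e1, Nr2e3, Nr5a1 and Nr0b1), and the 41 members stand against 55536 genes in the whole matrix. All 41 had enough counts to be tested, among 16026 tested genes.

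RNA was sequenced from whole mouse kidney. The series design names 4 healthy kidneys given vehicle, 7 kidneys with UUO given vehicle (called vehicle here) and 8 kidneys with UUO given zalfermin, a long-acting FGF21 analogue. UUO commonly stands for unilateral ureteral obstruction, in which a tied ureter leads to tubule loss and fibrosis. The sample labels disagree in part: they give MASH as the condition of the 15 diseased libraries and call the healthy ones untreated, and they name the drug by a code that is read here as zalfermin. The sources used here give no strain, age, sex, dose, duration or time of sampling. They also do not state that each library came from its own animal, so the spread that p-values rest on is that between these samples and may be technical.

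Libraries held 12209122 to 14844103 counts, so their depths were close. Mitochondrially encoded genes took 8.77% to 10.2% of the counts of healthy libraries, 1.10% to 4.21% of those of vehicle libraries and 2.95% to 4.25% under zalfermin. Markers checked the tissue and its cell mix. All 8 proximal tubule markers fell with obstruction (summed level 13337 to 17446 CPM in healthy and 2514 to 5505 CPM in vehicle libraries), and so did all 5 thick limb and distal tubule markers and 5 of 6 collecting duct markers. All 9 fibroblast markers (221 to 331 CPM against 2834 to 5048 CPM), all 7 macrophage markers (145 to 179 CPM against 960.0 to 1224 CPM) and all 5 injured tubule markers rose. These shifts run beside every change with obstruction given below, and their part in it was not tested; in bulk RNA, fewer cells of a type and less RNA per cell cannot be told apart. Vehicle replicate 6 stood apart, with 19788 detected genes, where the others of its group had at least 21374, and with the lowest mitochondrial share. It was the highest or lowest vehicle library for 28 of 41 members (68.3%) and for 65.8% of all tested genes, so the calls named below that turn on it are given with and without it.

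Levels are in CPM, which scales each count to the TMM-adjusted depth of its library; a value with ± is a mean and its SD (n = 4 healthy, 7 vehicle and 8 zalfermin libraries). Tests are edgeR's quasi-likelihood F tests from 1 fit to all 19 libraries, with p adjusted by Benjamini-Hochberg over the 16026 tested genes, and a gene is said to rise or fall where the adjusted p was under 0.05. The comparison of vehicle with healthy kidneys asked what obstruction changed, and that of zalfermin with vehicle asked what the drug changed in obstructed kidneys. They share the vehicle libraries.

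With obstruction, 29 of 41 members changed, against 64.8% of all tested genes. Of these, 18 fell (28.6% of all tested genes fell) and 11 rose (36.2% rose). That split moved with the library scaling, for the members and for all tested genes. With RLE scaling 20 members fell and 9 rose, and over all tested genes 5150 fell and 5264 rose. With upper-quartile scaling 17 members fell and 12 rose, and over all tested genes 4265 fell and 6185 rose. The healthy and vehicle libraries did not overlap for 18 members (44.2% of all tested genes), and 12 of the called members changed at least 2-fold (30.3% of all tested genes). At an unadjusted p under 0.05 stood 31 members (67.8% of all tested genes). The median log2 fold change was -0.17 over the members and 0.09 over all tested genes, and the median size regardless of sign was 0.58 against 0.56. The receptors that fell included Hnf4a, the 3 estrogen-related receptors, Ppara, Ppard, Rxra, Thra, Thrb, Nr1h3, Nr1h4, Nr2f6, Nr6a1 and Nr0b2, with Ppargc1a, Ppargc1b and Ncor1 among the coregulators. The risers included Pparg, Rara, Rarg, Nr2c1, Nr2f1, all 3 NR4A receptors, Ncoa3 and Nrip1. With zalfermin only 1 of the 41 changed, the immediate early receptor Nr4a3, which fell.

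**Figure D1:**
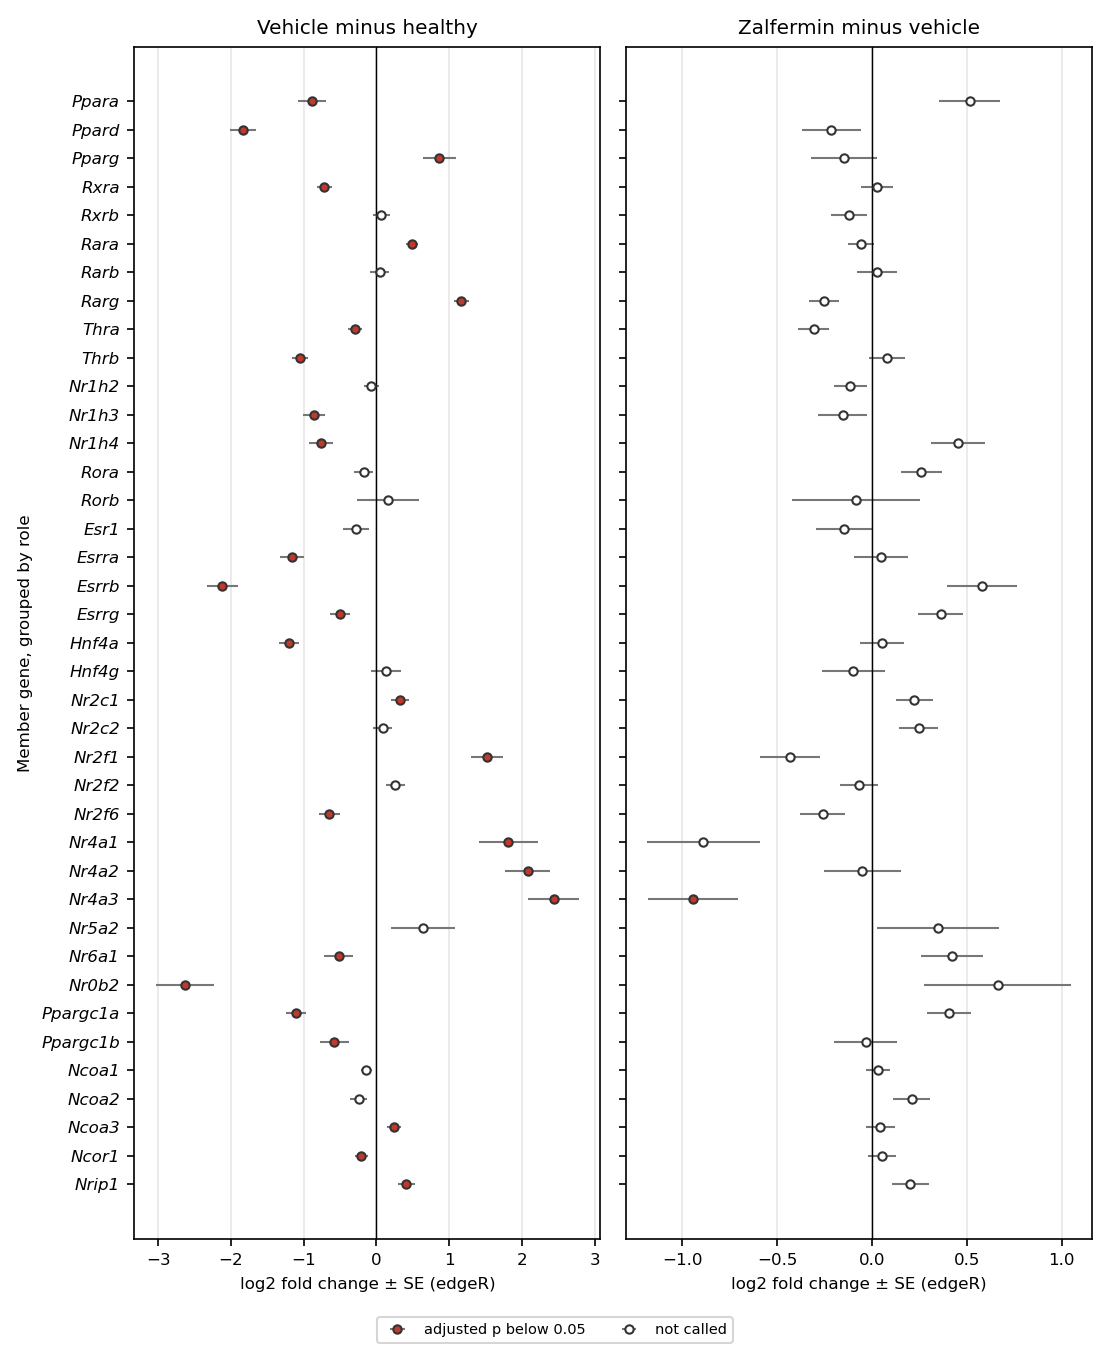
log2 fold change ± SE of 39 members (edgeR), for vehicle minus healthy (left) and zalfermin minus vehicle (right); filled points have an adjusted p below 0.05, and the horizontal scales differ. With obstruction 17 filled points lie left of 0 and 10 right of it, from Nr0b2 (-2.63) to Nr4a3 (2.44), while with zalfermin the single filled point is Nr4a3 (-0.94).

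Among the fatty acid receptors, 2 fell and 1 rose. Ppara (ENSMUSG00000022383, chr15:85734983-85802819, GRCm38) encodes the receptor that switches on fatty acid oxidation and ketone synthesis. It was at 37.2, 27.8, 41.4 and 38.2 CPM in the healthy libraries and ranged from 11.4 to 29.2 CPM (median 19.2) in vehicle. The groups overlapped through 1 library on each side, healthy replicate 2 and vehicle replicate 6, and the mean fell from 36.1 ± 5.85 to 19.6 ± 5.65 CPM, a log2 fold change of -0.88 (SE 0.19, adjusted p = 0.000276). Ppard, the widely expressed isotype, fell furthest of the 3, from 75.6 to 149.6 CPM in healthy to 23.6 to 54.2 CPM in vehicle, with no overlap (log2 fold change -1.83, SE 0.18, adjusted p = 7.96e-09). Pparg, the receptor of adipocyte formation and the target of the thiazolidinedione drugs, moved the other way from a low level. It rose from 2.55 ± 0.74 to 4.67 ± 0.86 CPM, also with no overlap (log2 fold change 0.87, SE 0.23, adjusted p = 0.00218). Of 4 tested adipocyte markers 0 were called in that comparison by edgeR, DESeq2 or voom, nor did any have an unadjusted p under 0.05. Their median log2 fold change was 1.82, however, larger than that of Pparg, and 3 of them were called higher in zalfermin than in healthy libraries. The summed level of the list was 44.1 to 57.8 CPM in healthy and 46.4 to 148 CPM in vehicle libraries. The part of adipose tissue in the Pparg values was not tested.

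Of 23 tested genes listed as targets of PPAR alpha, 17 fell, 5 rose and 1 was not called (median log2 fold change -0.72). Hadhb, a subunit of the mitochondrial trifunctional protein, fell from 149 ± 4.65 to 71.4 ± 10.8 CPM, a log2 fold change of -1.06 (adjusted p = 3.51e-09). Acadm, the medium-chain acyl-CoA dehydrogenase, fell from 1432 ± 155 to 424 ± 139 CPM, a log2 fold change of -1.75 (adjusted p = 1.81e-08). Those that rose included Angptl4, Plin2, Cyp4a14 and Creb3l3. Angptl4, an inhibitor of lipoprotein lipase, and Plin2, a lipid droplet coat protein, are not enzymes of oxidation, whereas Cyp4a14 hydroxylates fatty acids.

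The retinoid X receptors are the common partners of many of the others. Rxra fell from 184 to 214 CPM in healthy to 103 to 167 CPM in vehicle libraries, with no overlap (log2 fold change -0.71, SE 0.10, adjusted p = 1.48e-06). Rxrb was at 50.8 ± 9.20 and 53.3 ± 9.42 CPM and was not called (log2 fold change 0.07, adjusted p = 0.616). The retinoic acid receptors, in contrast, showed higher levels in 2 of 3 cases. Rarg was at 20.7, 15.1, 16.3 and 15.3 CPM in the healthy libraries and from 33.5 to 42.6 CPM (median 39.5) in vehicle. Every vehicle library lay above every healthy one (log2 fold change 1.17, SE 0.10, adjusted p = 1.40e-09). Rara rose less, from 24.7 ± 1.79 to 34.8 ± 3.27 CPM, a log2 fold change of 0.49 (SE 0.09, adjusted p = 3.24e-05), and Rarb was not called (0.05). Of 11 tested genes of retinoid metabolism and retinoic acid response, 7 rose, 2 fell and 2 were not called (median log2 fold change 0.75). They included Stra6, the cell surface receptor for retinol-binding protein, which rose from 4.30 ± 1.05 to 51.9 ± 8.91 CPM (adjusted p = 3.94e-13). The fallers of that list were Dhrs3, which turns retinal back to retinol, and Cyp26b1, which degrades retinoic acid.

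Both thyroid hormone receptors fell. Thrb dropped from 50.5 to 59.3 CPM in healthy to 22.6 to 31.6 CPM in vehicle libraries, with no overlap (log2 fold change -1.05, SE 0.11, adjusted p = 2.75e-08). The fall of Thra, the more abundant of the pair, was smaller and the groups overlapped, at 102 ± 13.4 and 83.5 ± 8.09 CPM, a log2 fold change of -0.29 (SE 0.10, adjusted p = 0.0123); it was no longer called without healthy replicate 2 (adjusted p = 0.0577). Of 9 genes of thyroid hormone metabolism and response, 3 rose, 5 fell and 1 was not called. Hr, the corepressor hairless, rose from 2.08 ± 0.33 to 17.1 ± 1.83 CPM (adjusted p = 4.60e-12), and Dio1, the deiodinase that makes active hormone in the proximal tubule, fell from 44.4 ± 10.7 to 10.1 ± 2.26 CPM (adjusted p = 5.98e-10).

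The oxysterol receptors Nr1h2 (LXR beta) and Nr1h3 (LXR alpha) govern cholesterol export, and Nr1h4 (FXR) senses bile acids. Nr1h3 fell from 73.9 ± 13.2 to 40.65 ± 12.3 CPM, a log2 fold change of -0.86 (SE 0.15, adjusted p = 3.67e-05), its groups overlapping only through vehicle replicate 6 at 66.8 CPM. Nr1h2 was not called, at 94.0 ± 4.49 and 89.4 ± 16.4 CPM, a log2 fold change of -0.07 (adjusted p = 0.557), but was called lower without vehicle replicate 6 (adjusted p = 0.00901). With all libraries, voom called Nr1h2 lower too (adjusted p = 0.0110). Nr1h4 was at 110.2, 100.8, 132.8 and 95.8 CPM in healthy libraries and from 53.0 to 98.3 CPM (median 57.4) in vehicle. Vehicle replicate 4 alone reached into the healthy range, and the fall passed the test (log2 fold change -0.76, SE 0.17, adjusted p = 0.000455). LXR target genes were split, with 5 of 11 higher, 3 lower and 3 not called. The 2 with the smallest p rose: Arl4c, a small GTPase, from 10.54 ± 2.26 to 72.5 ± 3.80 CPM (adjusted p = 1.43e-13), and Apoe, the apolipoprotein that macrophages secrete, from 196 ± 43.5 to 1197 ± 110 CPM (adjusted p = 4.66e-13). Of 3 tested FXR targets, 2 fell, the organic solute transporter subunits Slc51b (36.6 ± 6.22 to 18.99 ± 3.03 CPM, adjusted p = 1.36e-06) and Slc51a (76.6 ± 37.5 to 51.6 ± 16.8 CPM, adjusted p = 0.0421).

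The ROR receptors bind DNA as monomers and are known for circadian and lymphocyte roles. Rora (log2 fold change -0.17) and the scarce Rorb (0.16) were not called, nor was the estrogen receptor Esr1 (-0.28).

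The estrogen-related receptors are orphan receptors that, with PGC-1 alpha, drive genes of mitochondrial energy production. All 3 fell. Esrrb (ENSMUSG00000021255, chr12:86361117-86521628) was at 55.0, 54.6, 54.4 and 35.5 CPM in healthy libraries and from 7.90 to 21.7 CPM (median 9.72) in vehicle. No library overlapped, although healthy replicate 4 was low and vehicle replicate 6 high within their groups, and the log2 fold change was -2.12 (SE 0.21, adjusted p = 1.07e-08). Esrra (chr19:6910977-6921813) was at 140.1, 192, 157 and 194.5 CPM in healthy libraries and from 59.4 to 129.7 CPM (median 67.5) in vehicle. The top vehicle value was again replicate 6, the next being 80.4 CPM, and the groups did not overlap (log2 fold change -1.16, SE 0.17, adjusted p = 2.21e-06). Esrrg fell least, from 102 ± 19.1 to 71.9 ± 14.3 CPM with overlap (log2 fold change -0.50, SE 0.14, adjusted p = 0.00332).

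Ppargc1a (PGC-1 alpha, ENSMUSG00000029167, chr5:51454250-51567726), their coactivator, was at 130.7, 96.9, 100.4 and 90.8 CPM in healthy libraries and from 38.8 to 61.8 CPM (median 46.8) in vehicle. All 7 vehicle libraries lay below all 4 healthy ones (log2 fold change -1.10, SE 0.13, adjusted p = 2.05e-07). Its relative Ppargc1b fell from 9.35 ± 1.87 to 6.27 ± 2.04 CPM, a log2 fold change of -0.58 (SE 0.20, adjusted p = 0.0140), a call that was lost without healthy replicate 3 (adjusted p = 0.0854). The third of that family, Pprc1, was in the list of coregulator partners and rose from 12.9 ± 0.95 to 40.0 ± 8.20 CPM, a log2 fold change of 1.63 (adjusted p = 8.69e-10). All 13 genes listed as targets of the estrogen-related receptors and PGC-1 fell (median log2 fold change -1.28). Sod2, the mitochondrial superoxide dismutase, fell from 431 ± 35.5 to 142 ± 25.7 CPM (adjusted p = 1.29e-10), and Ndufb5, a subunit of respiratory complex I, fell from 183 ± 24.1 to 76.9 ± 10.9 CPM (adjusted p = 3.98e-10).

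Hnf4a (ENSMUSG00000017950, chr2:163506808-163572910), which drives the maturation of proximal tubule cells, was by far the most abundant member. It was at 953.9, 1099.9, 1111 and 1345 CPM in healthy libraries and from 405 to 635 CPM (median 459.8) in vehicle. The groups lay well apart (log2 fold change -1.20, SE 0.14, adjusted p = 6.70e-08). Hnf4g, its close relative, was at 6.71 ± 1.61 and 7.37 ± 1.98 CPM and was not called (log2 fold change 0.14, adjusted p = 0.576). Of 11 proximal tubule genes known to depend on HNF4A, 10 fell and 1 rose (median log2 fold change -1.30), beside the fall of all 8 proximal tubule markers (median -1.93). Slc22a8, an organic anion transporter, fell from 403 ± 66.2 to 41.1 ± 12.1 CPM, a log2 fold change of -3.29 (adjusted p = 8.1e-11), and Fbp1, a gluconeogenic enzyme, fell from 1266 ± 160 to 262 ± 86.5 CPM, a log2 fold change of -2.27 (adjusted p = 2.53e-09). The gene that rose was the glycolytic enzyme Pklr.

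The COUP-TF and testicular receptors went in both directions. Nr2f1 (COUP-TF I), a receptor of mesenchyme and developing nervous tissue, rose from 1.08 to 2.13 CPM in healthy to 4.17 to 6.04 CPM in vehicle libraries, with no overlap (log2 fold change 1.53, SE 0.22, adjusted p = 2.66e-06). Nr2f6 (EAR2) fell from 185 ± 38.9 to 118 ± 28.3 CPM, a log2 fold change of -0.65 (SE 0.14, adjusted p = 0.000401), with vehicle replicate 6 at the top of its group. Nr2c1 rose slightly (log2 fold change 0.32, adjusted p = 0.0236), a call that was lost without vehicle replicate 5 or healthy replicates 2 or 3, while Nr2f2 (COUP-TF II, 0.26) and Nr2c2 (0.09) were not called. Nr2f2 was called higher without vehicle replicate 6 or healthy replicate 1, and with upper-quartile scaling or voom. The Nr2c1 call was also lost with RLE scaling, with DESeq2 and in the fit of the 2 groups alone. Nr6a1 fell (log2 fold change -0.52, adjusted p = 0.0237; lost without healthy replicates 3 or 4), and Nr5a2, at 0.66 ± 0.58 and 1.04 ± 0.45 CPM, was not called (0.65) except without healthy replicate 3. In the fit of the 2 groups alone the Nr6a1 call was lost as well. Nr0b2 (SHP), which has no DNA-binding domain and represses other receptors, fell from 3.73, 3.19, 3.12 and 1.37 CPM to 0.20 to 1.20 CPM (median 0.35). The counts behind it were small, 14 to 42 reads in a healthy and 3 to 18 in a vehicle library, but the groups did not overlap (log2 fold change -2.63, SE 0.40, adjusted p = 5.73e-06).

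The NR4A receptors are immediate early genes, induced within a short time of a stimulus and active without a classical ligand. They are the members with the largest rises, and their promoters are shown because the 3 moved together with obstruction. TGACG, the core of the cAMP response element bound by CREB, was searched on both strands in the RefSeq promoter windows of GRCm38.p6, which run from 250 bases before to 50 after an annotated start. Windows were found for 34 of 41 members. TGACG occurred at least once in 16 of 56 member windows (28.6%) and in 20.8% of all 32851 windows. Copies numbered 4 or more in 76 of all windows (0.231%) and in 3 member windows, those of Nr4a1, Nr4a2 and Nr4a3. The cutoff of 4 is the number that each of these 3 windows held, and the genes were picked for their rise. The share of 0.231% is therefore a description and no test of these promoters. The 250 bases before each start are printed 5′ to 3′ on the gene's strand, with TGACG or its reverse complement in capitals. They are chr15:101266596-101266845 (plus strand), chr2:57124004-57124253 (minus strand) and chr4:48045055-48045304 (plus strand).
Nr4a1: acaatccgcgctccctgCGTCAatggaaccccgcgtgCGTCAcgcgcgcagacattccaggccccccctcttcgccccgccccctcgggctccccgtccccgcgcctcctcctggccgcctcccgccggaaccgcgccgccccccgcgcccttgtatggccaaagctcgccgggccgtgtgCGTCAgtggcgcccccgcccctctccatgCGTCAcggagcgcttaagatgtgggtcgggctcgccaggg
Nr4a2: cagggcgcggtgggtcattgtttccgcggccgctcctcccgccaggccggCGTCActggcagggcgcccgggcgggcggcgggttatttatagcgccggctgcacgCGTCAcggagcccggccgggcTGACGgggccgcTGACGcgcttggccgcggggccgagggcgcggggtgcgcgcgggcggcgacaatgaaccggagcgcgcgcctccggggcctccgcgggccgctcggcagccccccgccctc
Nr4a3: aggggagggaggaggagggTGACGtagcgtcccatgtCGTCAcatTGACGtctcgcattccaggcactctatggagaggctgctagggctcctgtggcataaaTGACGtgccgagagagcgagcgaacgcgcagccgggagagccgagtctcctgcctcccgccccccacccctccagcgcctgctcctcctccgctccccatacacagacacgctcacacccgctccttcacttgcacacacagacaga
The capitals mark 4 copies in each, and no copy overlaps another or forms the full palindrome TGACGTCA, which 1 of 56 member windows and 1.79% of all windows held. A match is a description of the letters and not a measured binding site. The receptor response element core AGGTCA, searched likewise on both strands, was in 9 of 56 member windows (16.1%) and in 16.3% of all windows.

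Nr4a1 (NUR77) was at 2.40, 3.02, 5.14 and 7.65 CPM in healthy libraries and from 9.90 to 41.0 CPM (median 12.3) in vehicle. Vehicle replicate 1 held the top value and the other 6 vehicle libraries lay at or below 12.9 CPM, all above the healthy ones (log2 fold change 1.81, SE 0.40, adjusted p = 0.000463). Nr4a2 (NURR1) was at 0.18, 0.71, 0.84 and 0.49 CPM in healthy libraries and from 1.92 to 2.87 CPM (median 2.24) in vehicle (log2 fold change 2.08, SE 0.31, adjusted p = 4.11e-06). Nr4a3 (NOR1, ENSMUSG00000028341, chr4:48045153-48086447) was at 0.71, 0.80, 0.42 and 0.59 CPM in healthy and from 2.16 to 5.11 CPM (median 3.41) in vehicle libraries. Its counts were 5 to 9 reads against 34 to 73, with no overlap (log2 fold change 2.44, SE 0.35, adjusted p = 2.63e-06). Of 12 other immediate early genes, 11 rose and 1 fell (median log2 fold change 2.36); Atf3, a stress-induced factor, went from 1.51 ± 0.34 to 43.4 ± 8.26 CPM, a log2 fold change of 4.84 (adjusted p = 6.31e-14). Fosl1, of the AP-1 family, was close to undetected in healthy libraries (0.025 ± 0.049 CPM) and at 6.16 ± 1.62 CPM in vehicle ones (adjusted p = 2.82e-11), and Dusp1 was the one that fell.

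**Figure D2:**
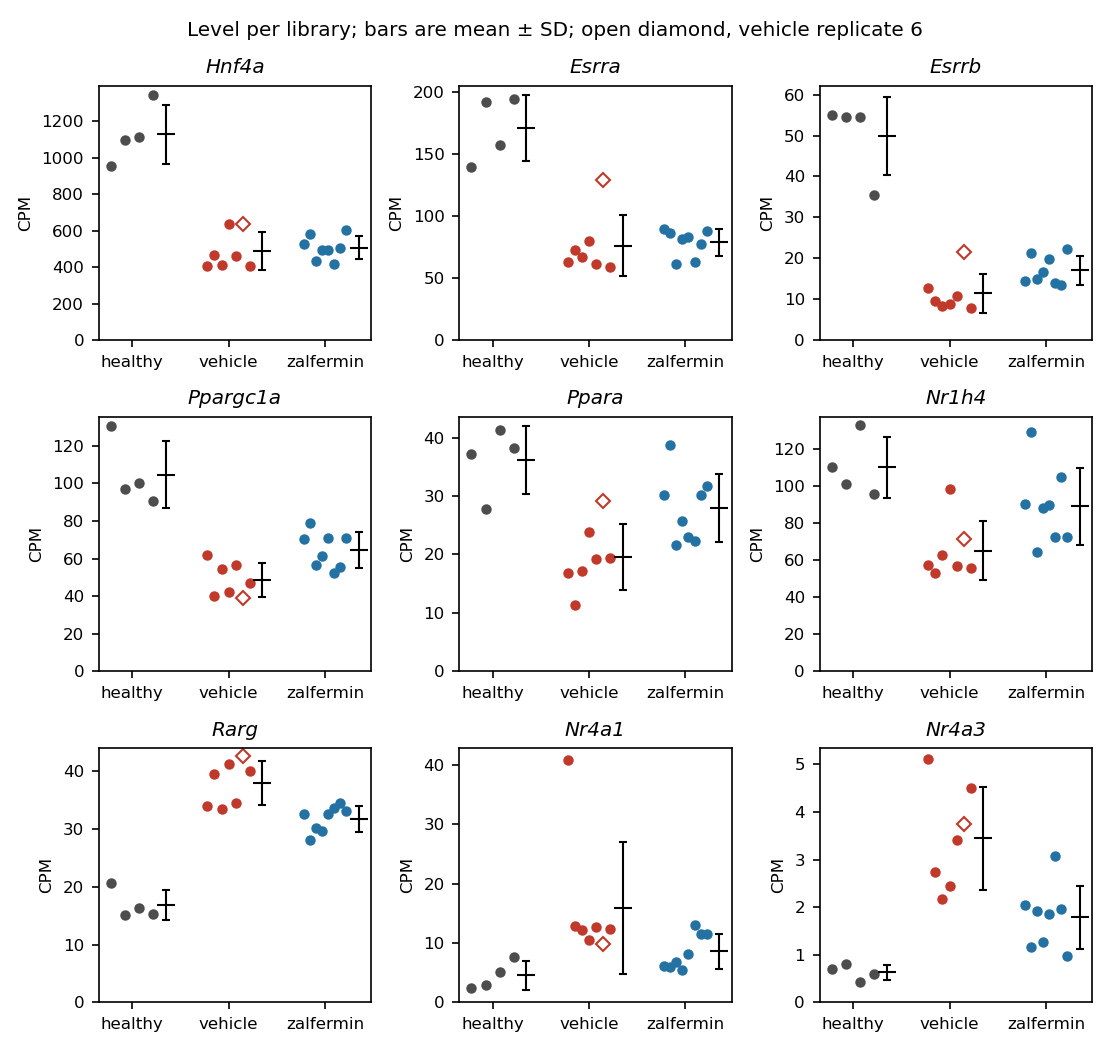
CPM of 9 members in each library (points) by group, with mean ± SD at the right of each group (n = 4, 7 and 8); the open diamond is vehicle replicate 6. Hnf4a, Esrra, Esrrb and Ppargc1a sit lower in all vehicle than in all healthy libraries, Rarg, Nr4a1 and Nr4a3 sit higher, and the zalfermin libraries overlap the vehicle libraries in all 9 panels.

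The remaining coregulators among the members that are named here changed by 0.41 on the log2 scale or less, in either direction. Among the steroid receptor coactivators, which acetylate histones or recruit enzymes that do, Ncoa3 rose by 0.25 on the log2 scale (90.5 ± 8.76 to 107 ± 10.7 CPM, adjusted p = 0.0273), a call lost without vehicle replicates 4 or 6 or healthy replicate 2, while Ncoa1 (-0.14) and Ncoa2 (-0.24) were not called. Ncoa1 was called lower without vehicle replicate 6, and Ncoa2 was called lower without any one of vehicle replicates 4, 5 or 6 or healthy replicate 2, with an adjusted p down to 0.0330. With all libraries, RLE scaling and DESeq2 also called both lower, and voom called Ncoa1 lower. The Ncoa3 call was lost with RLE scaling and with DESeq2. Ncor1 was at 254.9, 204.1, 252.0 and 246.7 CPM in healthy libraries and from 183 to 241 CPM (median 207) in vehicle, so that the groups overlapped. Its fall was small (log2 fold change -0.21, SE 0.09, adjusted p = 0.0425) and was lost without any one of 7 libraries (vehicle replicates 2, 3 or 7, zalfermin replicate 4, healthy replicates 1, 3 or 4), with an adjusted p up to 0.120. The Ncor1 call was also lost with upper-quartile scaling, with no filter and in the fit of the 2 groups alone. Nrip1, a ligand-dependent corepressor, rose from 50.2 ± 8.72 to 66.7 ± 9.99 CPM, a log2 fold change of 0.41 (SE 0.12, adjusted p = 0.00438). Of 19 other coregulator complex genes 12 rose, 3 fell and 4 were not called (median log2 fold change 0.30); besides Pprc1, the smallest p belonged to Ncoa6, from 44.6 ± 3.57 to 67.5 ± 5.67 CPM (adjusted p = 1.55e-06). Among receptors outside the rule, Vdr, the vitamin D receptor, fell from 297 ± 10.2 to 159 ± 18.1 CPM, a log2 fold change of -0.90 (adjusted p = 5.83e-09), Pgr rose from 1.08 ± 0.50 to 5.33 ± 2.68 CPM (adjusted p = 5.06e-05) and Nr1i2 was not called.

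**Figure D3:**
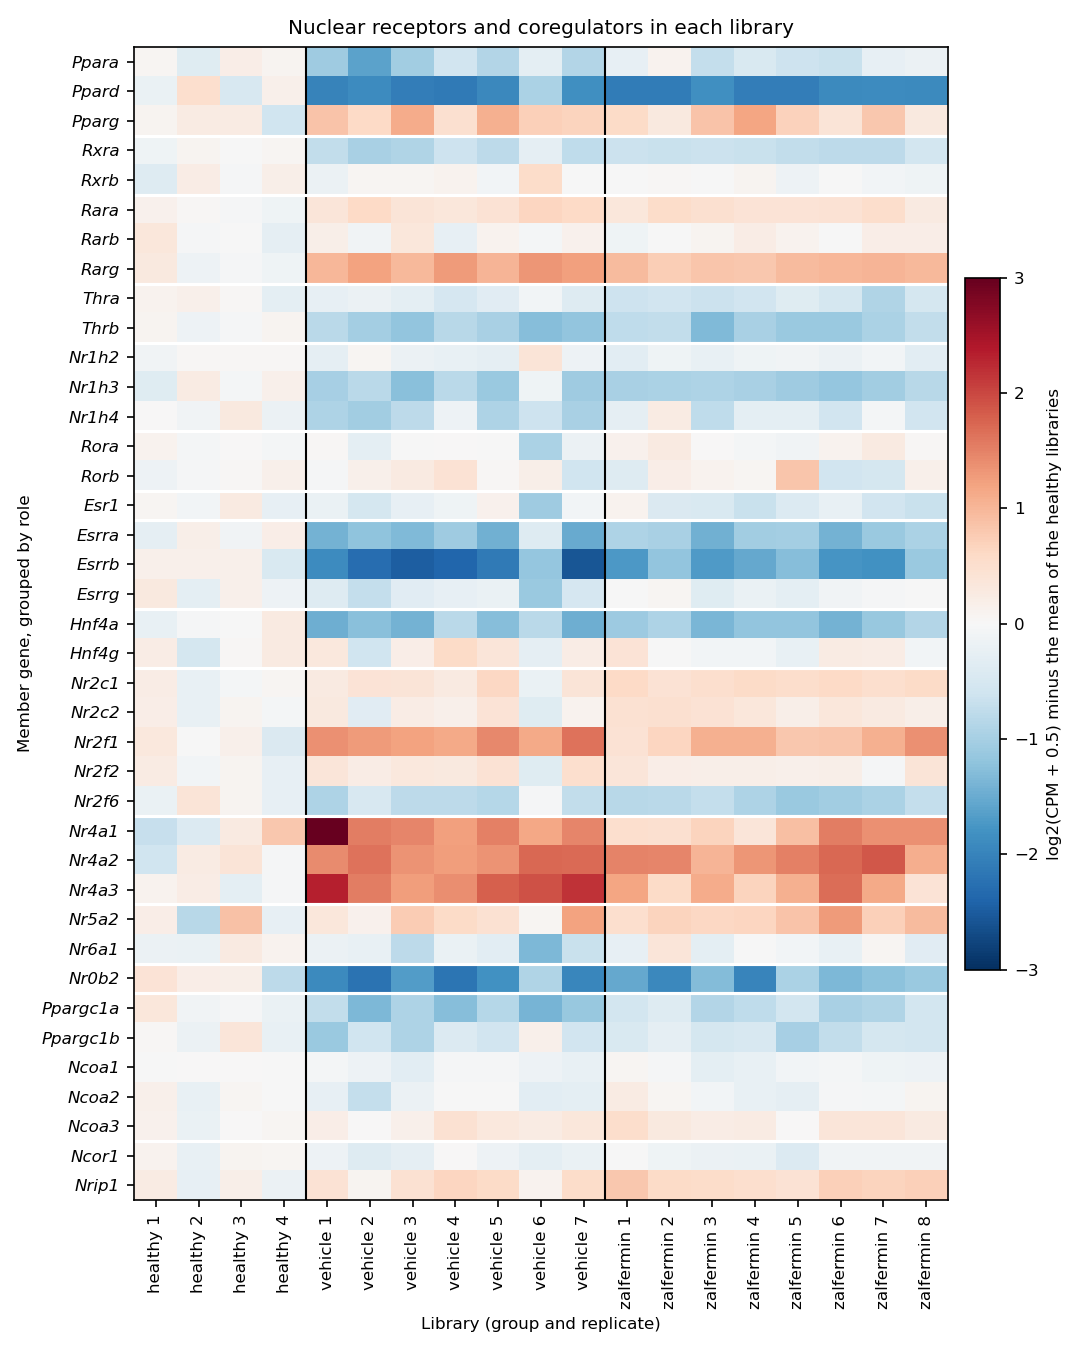
log2(CPM + 0.5) of 39 members in each of the 19 libraries minus the mean of the 4 healthy libraries, with members grouped by role (white lines) and colours ending at 3 log2 units either way. Blue rows include Ppard, Esrra, Esrrb, Hnf4a, Nr0b2 and Ppargc1a and red rows Rarg, Nr2f1 and the NR4A receptors; vehicle replicate 6 is paler than the other vehicle libraries in Ppard, Nr1h3, Esrra and Esrrb and darker in Rora and Esrrg.

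Levels can be set against each other only per length, as RPKM, the CPM divided by the length in kilobases of all annotated exons of a gene. In healthy kidneys the order was led by Hnf4a at 234 ± 33.5, then Nr2f6 at 62.1 ± 13.02, Nr1h4 at 47.7 ± 7.13, Esrra at 39.0 ± 6.09 and Rxra at 37.1 ± 2.45 RPKM. Hnf4a stood clear of the next, since its lowest library was at 198 and the top Nr2f6 library at 79.6 RPKM, whereas the range of Nr1h4 overlapped those of Nr2f6 and Esrra, and that of Esrra overlapped that of Rxra. Rorb was last, at 0.059 ± 0.0095 RPKM. In vehicle kidneys Hnf4a (101 ± 21.2), Nr2f6 (39.6 ± 9.50) and Nr1h4 (28.2 ± 6.89 RPKM) kept ranks 1 to 3. Esrra went from rank 4 to 7, Ppard from 13 to 26, Esrrb from 18 to 31 and Nr0b2 from 30 to 39, while Rarg went from 26 to 16 and Nr4a1 from 34 to 24. These ranks are of group means, and close ranks were not resolved. In vehicle libraries the range of Nr1h4 (23.0 to 42.7 RPKM) overlapped those of Nr2f6 (32.3 to 59.4) and Nr1h2 (23.2 to 36.8). That of Esrra (13.5 to 29.6 RPKM) overlapped that of Thra, at rank 6 (15.4 to 20.7).

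Close relatives were also set against each other. For 30 pairs of related members the log2 ratio of their counts, with 0.5 added to each, was taken within each library, where library scaling cancels, and its group means were compared with an exact two-sided permutation test (p adjusted by Benjamini-Hochberg over the 60 tests of both comparisons); this was added after the data were seen. With obstruction 19 of 30 ratios differed, and the healthy and vehicle values did not overlap for 13. Pairs of other genes were not measured in this way, so these counts have no background and describe the pairs alone. Pairs from the same group share genes, such as Ppara/Pparg and Ppard/Pparg, so a change of a single gene can shift several ratios. The counts are thus not of independent results. Without vehicle replicate 6 the count was again 19, of which 16 were shared. The 13 pairs without overlap had the smallest p that 330 arrangements allow (exact permutation p = 0.00303, adjusted 0.0121). Of them, Ppard/Pparg shifted by -2.74, from 5.39 ± 0.70 to 2.66 ± 0.52. Nr2f1/Nr2f6 shifted by 2.19, Ppara/Pparg by -1.82 and Hnf4a/Hnf4g by -1.33. Rxra/Rxrb shifted by -0.80. Nr1h2/Nr1h3 shifted by 0.80 and Thra/Thrb by 0.76, since Nr1h3 and Thrb were the pair members with the larger falls. In the NR4A group all 3 ratios failed the test.

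**Figure D4:**
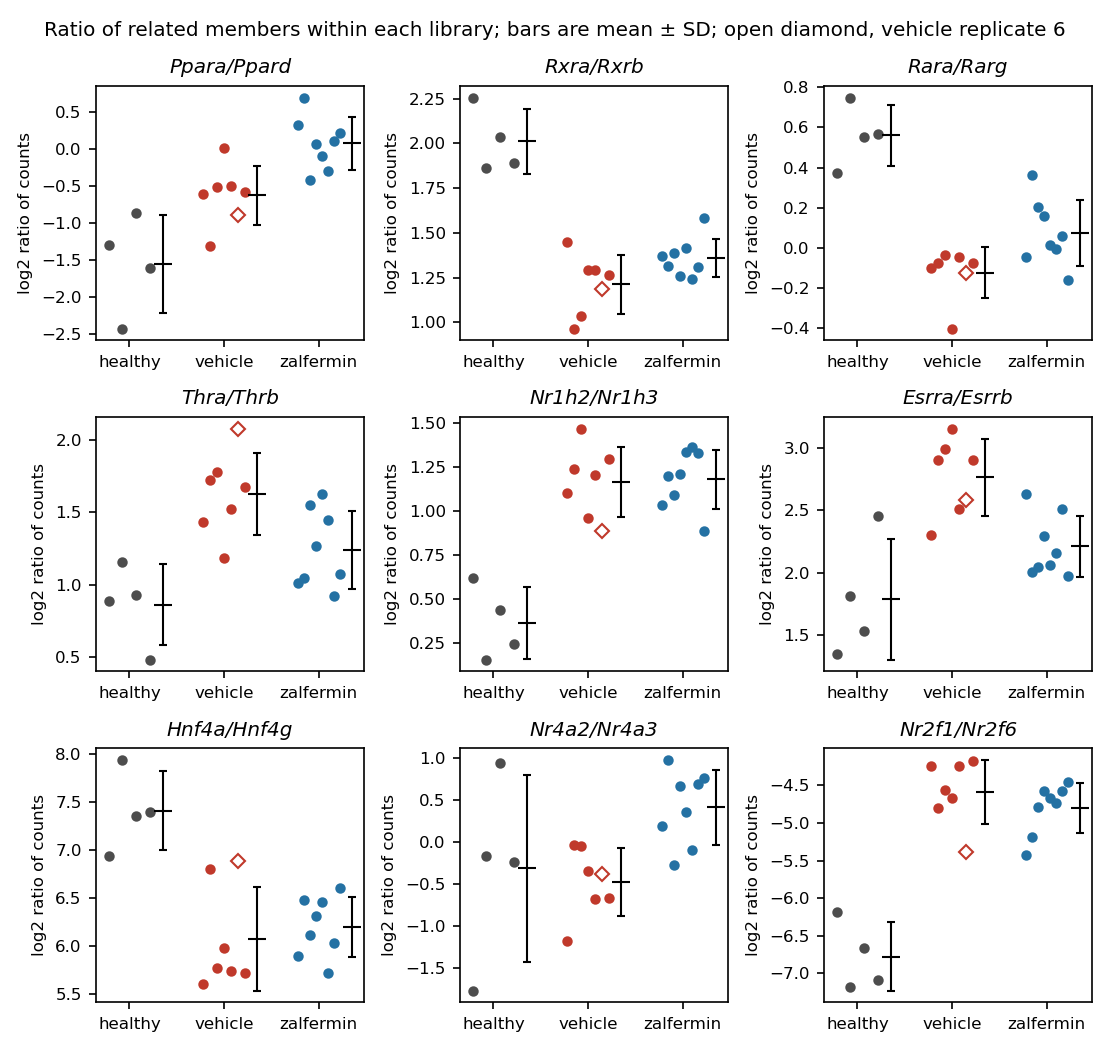
log2 ratio of the counts of 9 pairs of related members within each library, by group, with mean ± SD (n = 4, 7 and 8); the open diamond is vehicle replicate 6. Healthy and vehicle libraries do not overlap for Rxra/Rxrb, Rara/Rarg, Thra/Thrb, Nr1h2/Nr1h3, Hnf4a/Hnf4g and Nr2f1/Nr2f6, and zalfermin and vehicle libraries overlap in all 9 panels.

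Zalfermin changed 290 of the 16026 tested genes. That count was 517 without vehicle replicate 6, and 153 to 179 without any one of vehicle replicates 2 or 7 or zalfermin replicates 2, 4 or 5. Of the 41 members 1 was called against 1.81% of all tested genes; it fell (0.942% of all tested genes fell), and 0 rose (0.867% rose; DESeq2 called 2 and voom 3 higher). The members' zalfermin and vehicle libraries overlapped in all 41 cases (0.605% of all tested genes did not overlap). No member was called at 2-fold or more (0.3% of all tested genes), and 17 had an unadjusted p under 0.05 (15.5% of all tested genes). Over all tested genes 139 rose and 151 fell, a split that became 105 and 191 with upper-quartile scaling. The median log2 fold change was 0.03 for the members and 0.01 for all tested genes, and the median size was 0.15 against 0.12.

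Nr4a3 was the called member. It ranged from 2.16 to 5.11 CPM (median 3.41) in vehicle and from 0.98 to 3.08 CPM (median 1.89) in zalfermin libraries. All 8 zalfermin libraries lay below the vehicle median, yet zalfermin replicate 6, which held the top value of its group, lay above 3 vehicle libraries. The log2 fold change was -0.94 (SE 0.24, adjusted p = 0.0381), and against healthy kidneys the zalfermin libraries were still higher by 1.49 (adjusted p = 0.000885). The call was fragile: it was lost without any one of 11 libraries (vehicle replicates 1, 2, 5 or 7, zalfermin replicates 1 to 5, 7 or 8), with an adjusted p up to 0.0939, and was kept without vehicle replicate 6 (log2 fold change -0.94, adjusted p = 0.0391). Nr4a1 was at 8.6 ± 3.0 CPM with zalfermin against 15.9 ± 11.1 CPM with vehicle, a mean that vehicle replicate 1 raised, and was not called (log2 fold change -0.89, adjusted p = 0.135). Only voom, among the other tools and settings with all libraries, called Nr4a1 lower (adjusted p = 0.0282). Nr4a2 was at 2.31 ± 0.55 against 2.39 ± 0.39 CPM (log2 fold change -0.05). The Nr4a2/Nr4a3 ratio was higher with zalfermin by 0.89 (exact permutation p = 0.00218, adjusted 0.0121), so the difference between these relatives was itself tested. Among the other immediate early genes, Atf3 (log2 fold change -0.47, adjusted p = 0.0474) and Fosb (-1.85, adjusted p = 0.0311) fell and 10 were not called.

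The next smallest p-values belonged to members that missed the threshold. Thra ranged from 71.1 to 95.5 CPM (median 83.1) in vehicle and from 54.1 to 79.2 CPM (median 68.0) in zalfermin libraries. All 8 zalfermin libraries lay below the vehicle median (log2 fold change -0.31, SE 0.08, adjusted p = 0.0546); Thra was called lower without vehicle replicate 4 (the smallest adjusted p over left-out libraries was 0.0326), zalfermin replicate 5 or healthy replicate 4. It was also called lower with RLE scaling, upper-quartile scaling, DESeq2, voom, the filter of 1 CPM in 10 libraries and the fit of the 2 groups alone (smallest adjusted p = 0.0113), so its call turned on the processing. Ppargc1a was at 38.8 to 61.8 CPM in vehicle and 52.4 to 78.7 CPM (median 65.9) in zalfermin libraries, all 8 above the vehicle median (log2 fold change 0.41, SE 0.11, adjusted p = 0.0692). It was called higher without vehicle replicate 1 or zalfermin replicate 6, and with DESeq2 (adjusted p = 0.0426). Ppara was at 11.4 to 29.2 CPM in vehicle and 21.6 to 38.8 CPM (median 28.0) in zalfermin libraries, again all 8 above the vehicle median (log2 fold change 0.51, SE 0.16, adjusted p = 0.104). The highest vehicle library was replicate 6, without which Ppara was called higher (log2 fold change 0.63, adjusted p = 0.0193). Ppara was also called higher with DESeq2 and with voom (smallest adjusted p = 0.00867). Rarg was at 33.5 to 42.6 CPM in vehicle and 28.1 to 34.5 CPM (median 32.6) in zalfermin libraries, all 8 below the vehicle median (log2 fold change -0.25, SE 0.08, adjusted p = 0.106); DESeq2 called it lower (adjusted p = 0.0219).

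Esrrb, Nr1h4 and Esrrg had the same form, with all 8 zalfermin libraries above the vehicle median. Esrrb was at 17.2 ± 3.55 CPM with zalfermin and 11.5 ± 4.78 CPM with vehicle (log2 fold change 0.58, adjusted p = 0.120). Without vehicle replicate 6, at 21.7 CPM, it was called higher (log2 fold change 0.80, adjusted p = 0.00425). With all libraries, voom called Esrrb higher too (adjusted p = 0.00181). Nr1h4 was at 88.9 ± 20.7 against 65.0 ± 15.9 CPM, a log2 fold change of 0.45 (adjusted p = 0.114) and was called higher without vehicle replicate 4 (adjusted p = 0.0224), which held the top vehicle value of 98.3 CPM. With all libraries, voom called Nr1h4 higher (adjusted p = 0.0187). Esrrg was at 92.4 ± 9.49 against 71.9 ± 14.3 CPM, a log2 fold change of 0.36 (adjusted p = 0.123). In contrast Hnf4a (508 ± 65.05 against 489.7 ± 102 CPM, log2 fold change 0.05, adjusted p = 0.644) and Esrra (79.0 ± 10.9 against 76.4 ± 24.6 CPM, log2 fold change 0.05, adjusted p = 0.742) showed nearly equal means, as did Ncor1 (215 ± 16.6 against 207 ± 18.8 CPM, log2 fold change 0.05, adjusted p = 0.469). Of the other members, the log2 fold changes ran from -0.43 (Nr2f1) to 0.66 (Nr0b2), both uncalled, although voom called Nr2f1 lower (adjusted p = 0.0371).

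Without vehicle replicate 6 the zalfermin comparison called 2 members higher (Ppara and Esrrb) and 1 lower (Nr4a3), and the background rose with it: 517 of 15974 tested genes (3.24%) were called, 1.51% higher and 1.72% lower. For 9 of 30 pairs the ratio differed with zalfermin, and here too pairs that share a gene are not independent results. Without vehicle replicate 6 the count was 7, of which 4 were among the 9 and 3 were others. With all libraries, none of the 30 had groups that did not overlap. The count of differing pairs was 3 without vehicle replicate 2, vehicle replicate 7 or zalfermin replicate 2, and 5 without vehicle replicate 1. The Ppara/Ppard ratio went from -0.63 ± 0.40 to 0.07 ± 0.35 (difference 0.70, exact permutation adjusted p = 0.0121). Esrra/Esrrb went from 2.76 ± 0.30 to 2.21 ± 0.25 (difference -0.55, exact permutation adjusted p = 0.0140). Beside Nr4a2/Nr4a3, given above, the others were Nr1h3/Nr1h4 (-0.56), Nr1h2/Nr1h4 (-0.55), Nr2f1/Nr2f2 (-0.40), Thra/Thrb (-0.39), Rara/Rarg (0.20) and Ncoa2/Ncoa3 (0.17), all with exact permutation adjusted p between 0.0294 and 0.0456. The 4 pairs called both with and without vehicle replicate 6 were Ppara/Ppard, Esrra/Esrrb, Nr4a2/Nr4a3 and Nr1h2/Nr1h4, with exact permutation adjusted p from 0.0168 to 0.0461 without it. The other 5 lost the call without it: the exact permutation adjusted p became 0.0540 for Nr1h3/Nr1h4, 0.0586 for Rara/Rarg, 0.0693 for Ncoa2/Ncoa3, 0.0746 for Thra/Thrb and 0.0921 for Nr2f1/Nr2f2. The 3 pairs called only without that library were Esrrb/Esrrg (difference 0.52, exact permutation adjusted p = 0.0260), Ppara/Pparg (0.82, adjusted p = 0.0352) and Nr4a1/Nr4a2 (-0.84, adjusted p = 0.0352).

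**Figure D5:**
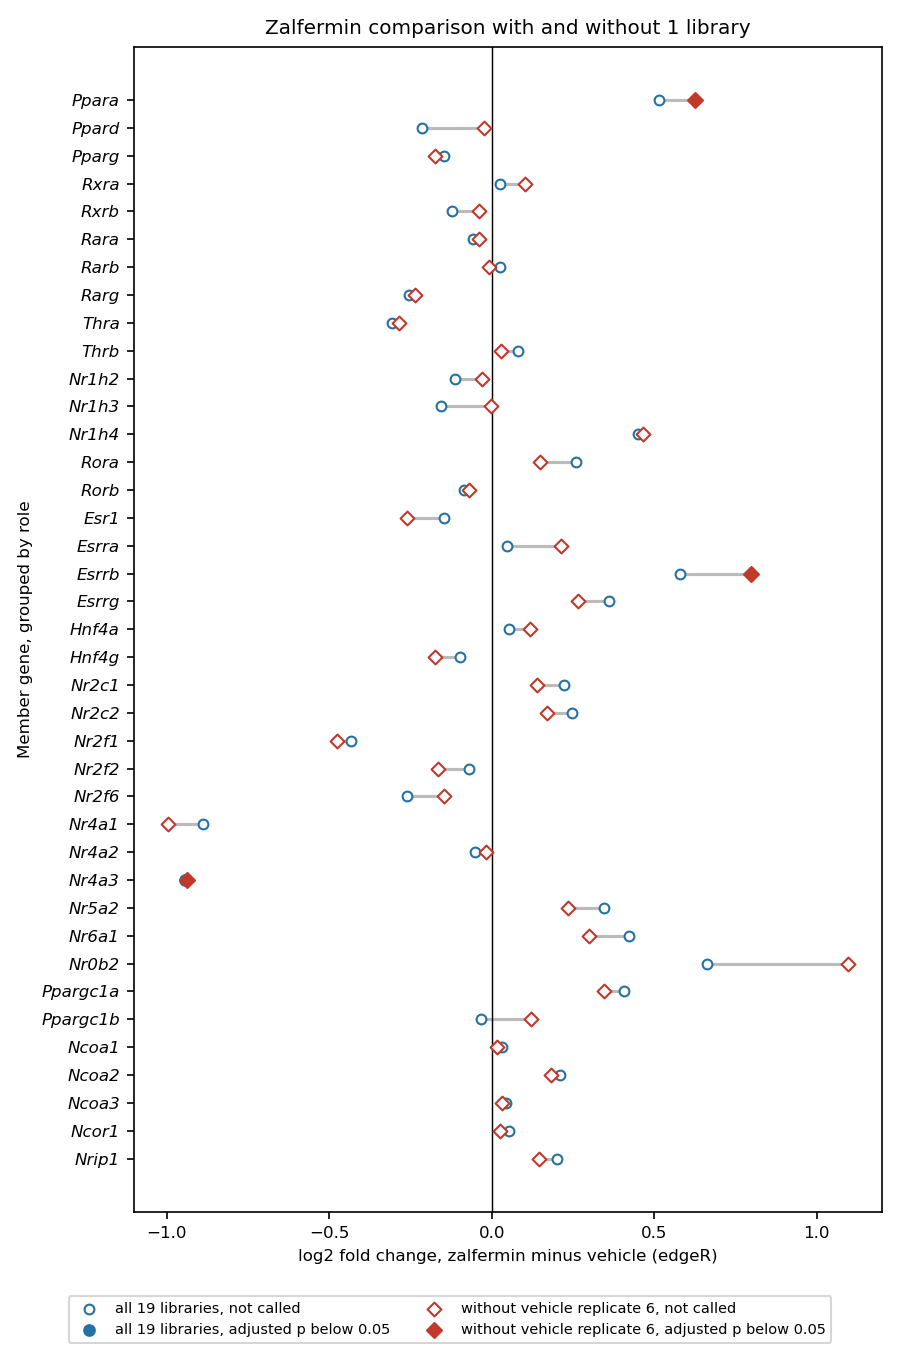
log2 fold change of 39 members for zalfermin minus vehicle with all 19 libraries (circles) and without vehicle replicate 6 (diamonds), joined by a line; filled symbols have an adjusted p below 0.05. Ppara goes from 0.51 to 0.63 and Esrrb from 0.58 to 0.80 and both become filled, while Nr4a3 is filled in both.

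Among the receptors' target lists, most genes were not called with zalfermin. Of 23 PPAR alpha targets 1 fell, the fatty acid hydroxylase Cyp4a12a (log2 fold change -1.33, adjusted p = 0.0261; 19.8 ± 9.42 to 7.86 ± 3.69 CPM), and 22 were not called. Of the 13 genes of the estrogen-related receptors and PGC-1, 0 were called by edgeR, DESeq2 or voom and 1 had an unadjusted p under 0.05, with a median log2 fold change of -0.01. In the thyroid hormone list the transporter Slc16a10 (39.7 ± 3.16 to 52.4 ± 5.56 CPM, adjusted p = 0.00689) and the hormone-responsive factor Klf9 (159 ± 29.2 to 218 ± 25.1 CPM, adjusted p = 0.0212) rose and 7 were not called. The glucose transporter Slc2a2 rose (103 ± 20.8 to 147 ± 19.2 CPM, adjusted p = 0.0212) as 1 of 11 HNF4A-dependent genes, beside 1 of 8 proximal tubule markers, Slc5a12. Pltp, which transfers phospholipid between lipoproteins, was the 1 of 11 LXR targets that fell (adjusted p = 0.0237). Of the fibroblast markers 3 of 9 fell, the collagen genes Col1a1, Col1a2 and Col3a1, and the list summed to 1703 to 2675 CPM with zalfermin; the part of the cell mix in the zalfermin values was not tested.

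Set against healthy kidneys, which both contrasts with obstruction share, zalfermin-treated kidneys differed in 27 of 41 members (64.3% of all tested genes), 13 higher (37.3%) and 14 lower (27%), and 22 members did not overlap (51.2% of all tested genes). Of these calls 9 were at least 2-fold (29%), and 27 members had an unadjusted p under 0.05 (67.3%). The largest differences were Ppard (log2 fold change -2.05, adjusted p = 9.20e-10), Nr4a2 (2.03, adjusted p = 5.16e-06), Nr0b2 (-1.97, adjusted p = 8.81e-05) and Esrrb (-1.54, adjusted p = 7.24e-07). Hnf4a stood at -1.15 and Esrra at -1.11, where vehicle against healthy had given -1.20 and -1.16. Ppara (-0.37, adjusted p = 0.0825), Nr1h4 (-0.31, adjusted p = 0.111) and Esrrg (-0.14, adjusted p = 0.386) were called lower with vehicle but not with zalfermin. The zalfermin minus vehicle contrast above is the test of that difference, and with edgeR and all libraries none of the 3 passed it. Ppara passed it with DESeq2, with voom (adjusted p down to 0.00867) and without vehicle replicate 6. Nr1h4 passed it with voom (adjusted p = 0.0187) and without vehicle replicate 4. Ppara was called lower than in healthy kidneys without any one of vehicle replicates 2 or 6, zalfermin replicate 2 or healthy replicate 2, and Nr1h4 without vehicle replicate 6 or zalfermin replicate 2. Both were also called lower than in healthy kidneys with RLE scaling, DESeq2, voom and the fit of the 2 groups alone, with an adjusted p down to 0.00603 for Ppara and 0.0192 for Nr1h4.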

How the data were processed

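RNA of whole kidney was isolated on NucleoSpin columns, libraries were built with the NEBNext Ultra II Directional kit, and a NextSeq was used for sequencing, per the labels' protocols. Reads were aligned with STAR 2.7.0f to GRCm38, per the submitters' processing notes. The deposited values are each gene's raw read counts, whole and unscaled. Which program counted them, with which strand setting and annotation, is not given in the sources used here; antisense and sense reads of overlapping genes therefore cannot be told apart. All 55536 gene identifiers were found in GENCODE M21 (GRCm38), which gave coordinates and exon lengths.

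The filterByExpr function of edgeR (minimum count 10, minimum total 15) left 16026 genes; the untested rows held 0.115% of counts. Healthy libraries had TMM factors of 0.751 to 0.843, vehicle libraries 1.02 to 1.11 and zalfermin libraries 1.02 to 1.08. A quasi-likelihood model was fitted to 19 libraries (edgeR 4.0.16, R 4.3.3), and p was adjusted over the 16026 genes by Benjamini-Hochberg, with calls under 0.05. The code was also run on simulated counts in which far fewer genes changed than with obstruction here. That run therefore does not show how the calls behave in these data. All members passed the filter, so the planned exact tests of scarce members were not needed.

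The members and gene lists were chosen with earlier results of these data known. Values are given in full for members called with zalfermin or with the 5 smallest p there; for up to 2 called members with the largest obstruction change per role and the strongest against the role's majority; and for Ppara, Ppargc1a, Hnf4a, Nr1h4, Esrra and Ncor1. From each list of other genes, the 2 with the smallest obstruction p are named with values. Nr4a1, Esrrg and further genes given with values were added after the values were seen. Alternatives were DESeq2 1.42.0, voom with quality weights (limma 3.58.1), upper-quartile or RLE scaling, no filter, 1 CPM in 10 libraries, a fit of the 2 groups compared, a robust fit, and each library left out. Some members and listed genes are counted but not reported here by name.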

Additional observations from a re-analysis of the deposited data

Results flagged for a closer look

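Over 39 members in each of 3 groups, 14 values lay far from the rest of their group by Dixon's criterion, which chance meets in about 1 in 20 groups. Of these 14, 8 were in vehicle replicate 6. It was the highest vehicle library for Ppard (54.2 CPM, next 29.1), Rxrb (73.3 CPM, next 53.6), Nr1h3 (66.8 CPM, next 41.6), Esrra (129.7 CPM, next 80.4), Esrrb (21.7 CPM, next 12.8) and Nr0b2 (1.20 CPM, next 0.51), and the lowest for Rora (44.1 CPM, next 69.3) and Nr2f2 (89.3 CPM, next 135.6). Its mitochondrially encoded share, 1.10%, was the lowest of all libraries.

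In other libraries, Nr4a1 was high in vehicle replicate 1 (41.0 CPM, next 12.9) and Nr1h4 in vehicle replicate 4 (98.3 CPM, next 71.1). Rorb was high in zalfermin replicate 5 (1.55 CPM, next 0.82). Among healthy libraries, Esrrb was low in replicate 4 (35.5 CPM, next 54.4), Nr1h2 in replicate 1 (87.4 CPM, next 95.5) and Ncor1 in replicate 2 (204.1 CPM, next 246.7).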

How the results depend on the processing

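No paired analysis was possible because the labels give no replicate numbers and the order of samples pairs nothing. With obstruction, 23 of the 29 called members were called with the same sign under every alternative (other scalings, DESeq2, voom, filters, fits and each library left out); those called under only some were Thra, Nr2c1, Nr6a1, Ppargc1b, Ncoa3 and Ncor1. Leaving out each library gave 9 to 12 members higher, 15 to 21 lower and 9789 to 11199 genes called, and 14 to 19 pairs of relatives whose ratio differed. For zalfermin against healthy, 21 of 27 were called throughout, with 9 to 13 higher, 12 to 19 lower and 9574 to 11088 genes called over left-out libraries. No called member changed sign under any alternative.

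The zalfermin comparison moved more. Members lower numbered 2 with RLE scaling, with upper-quartile scaling and with 1 CPM in 10 libraries, 3 with DESeq2, 4 with voom and 0 with no filter. Members higher numbered 2 with DESeq2 and 3 with voom, and all genes called were 602 with DESeq2 and 1148 with voom. Over left-out libraries the counts were 0 to 2 higher, 0 to 2 lower, 153 to 517 genes and 3 to 8 pairs, the most genes without vehicle replicate 6; the cause was not tested. Nr4a3 was not called with no filter or in the 2-group fit (adjusted p up to 0.0544). Both DESeq2 and voom called Ppara and Thra. Depth limits the scarce members: Nr4a3 had 5 to 9 reads in a healthy library.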
